A study of Mus musculus with 8 samples.

Results

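The genes described here encode lysosomal enzymes, lysosomal membrane proteins and subunits of the vacuolar proton pump, measured by mRNA sequencing in the proximal large intestine of gnotobiotic mice. They were chosen by name from a list of 37 symbols, drawn up with earlier results of the same libraries in view, and 36 of the 37 symbols stand in the deposited table of 17041 genes. Tfeb, the transcription factor of the list, stands there only under its older symbol Tcfeb and is described beside the 36. By role the 36 are 8 proteases, 9 glycosidases, 6 lipid handling genes, 2 phosphatases, 6 other membrane genes and 5 proton pump genes.

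All mice carried the ApoE knockout, which raises plasma cholesterol, had been bred germ-free, were gavaged once at 8 weeks of age and were dissected at 26 weeks. The core group (3 libraries) received a core bacterial community that makes no butyrate. The core plus R. intestinalis group (5 libraries) received the same community together with Roseburia intestinalis, a butyrate-producing bacterium. The members of the core community, the diet of each mouse, its sex, cage and isolator, and the sequencing run of each library were not found in the labels. The labels number the replicates of a group without saying that each is a separate mouse, so the errors below measure the spread between these libraries.

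The libraries held between 4605421 and 15345326 estimated reads, so a normalized value of 50 stood for between 31 and 109 estimated reads. Values are normalized estimated reads per gene and are not scaled by gene length. Values per library are given in the order of replicates 1 to 3 for core and 1 to 5 for core plus R. intestinalis, group means with SD are over 3 and 5 libraries, and differences are core plus R. intestinalis minus core on the log2(value + 1) scale with their standard error (SE). All 12 markers of colonic epithelium were measured above the filter on low values, with a summed value of 154170 to 371900 in core and 207478 to 373690 with R. intestinalis. Much of this sum was Muc2, which averaged 148977 in core and 157579 with R. intestinalis. Of the 12 markers, 10 had a log2 difference above 0, and none passed limma's test across all genes, given below. Apoe, whose knockout both groups carry, averaged 15.2 ± 4.92 and 20.3 ± 4.29. The tissue holds epithelium, muscle, connective tissue and immune cells, and in such bulk samples fewer cells of a type and less RNA per cell cannot be told apart.

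Lysosomes are acidic organelles that break down material delivered by endocytosis, phagocytosis and autophagy. The vacuolar proton pump acidifies them, soluble hydrolases cut proteins, glycans and lipids, and membrane proteins protect the limiting membrane and export the products. Many of these genes carry a palindromic promoter element, the CLEAR element (coordinated lysosomal expression and regulation), which is bound by TFEB and its relatives. In the gut wall, macrophages are rich in lysosomes, and every epithelial cell has them as well.

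The promoter sequences are shown as a description. The CLEAR element is already known from lysosomal genes, so a high share among genes chosen by name as lysosomal is no independent result. RefSeq promoters of the build GRCm38.p6, each from 250 bases before to 50 bases after a gene's start, were searched for exact matches to TCACGTGA, the core of the CLEAR element, and to the shorter E-box CACGTG that lies inside it. Both are palindromes, so both strands read the same. A promoter was found for 31 of the 36 genes, all but Ctsb, Ctsh, Asah1, Npc1 and Atp6v1h. TCACGTGA stood in the promoters of 6 of these 31 genes (19.4%), against 199 of the 9312 tested genes with a promoter (2.14%). Of all 27025 genes with a promoter, 304 held it (1.12%). CACGTG stood in 11 of 31 (35.5%), against 1093 of 9312 (11.7%) and 2187 of 27025 (8.09%). The 11 genes follow, 5′ to 3′ along the strand of the gene, with both motifs in capitals; for Ctsd the window holds the CLEAR core, and a further E-box stands farther upstream. The first 6 hold TCACGTGA and the last 5 hold CACGTG only.
Ctsa (chr2:164833740-164833802, plus strand): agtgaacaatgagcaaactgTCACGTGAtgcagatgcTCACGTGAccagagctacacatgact
Ctsd (chr7:142387899-142387946, minus strand): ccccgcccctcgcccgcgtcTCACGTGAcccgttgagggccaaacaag
Gla (chrX:134601173-134601253, minus strand): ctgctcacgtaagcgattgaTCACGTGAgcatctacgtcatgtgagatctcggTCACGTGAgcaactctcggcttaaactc
Mcoln1 (chr8:3500428-3500500, plus strand): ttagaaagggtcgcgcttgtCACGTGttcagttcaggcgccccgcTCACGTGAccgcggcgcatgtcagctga
Atp6v0d1 (chr8:105566041-105566088, minus strand): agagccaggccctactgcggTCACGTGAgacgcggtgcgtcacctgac
Atp6v1a (chr16:44139364-44139411, minus strand): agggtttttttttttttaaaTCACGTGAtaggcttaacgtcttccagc
Lamp1 (chr8:13159080-13159171, plus strand): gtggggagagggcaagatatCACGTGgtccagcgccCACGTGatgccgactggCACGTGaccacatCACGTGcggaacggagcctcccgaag
Ctsl (chr13:64370731-64370770, minus strand): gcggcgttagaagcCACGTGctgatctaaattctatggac
Gaa (chr11:119267803-119267848, plus strand): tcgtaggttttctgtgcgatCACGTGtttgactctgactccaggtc
Glb1 (chr9:114401010-114401055, plus strand): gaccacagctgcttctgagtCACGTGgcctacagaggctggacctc
Naglu (chr11:101070001-101070046, plus strand): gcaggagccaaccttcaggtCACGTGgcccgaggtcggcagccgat

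Ctsa and Gla each held 2 copies of the CLEAR core, and Lamp1 held 4 E-boxes. Counted from the annotated start, the copies of the CLEAR core began between −228 in Gla and +5 in Ctsa. The 6 genes with TCACGTGA had a median log2 difference between the groups of 0.14 (−0.17 to 0.29). The 25 genes with a promoter but without TCACGTGA had a median of 0.15 (−0.47 to 1.34). The genes with the largest differences in either direction, Spns1 and Lamp2, held neither motif in this window. A match describes the letters of a window and does not show binding, and the submitters' processing notes name the older build mm9, to which no coordinate was carried over.

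Per kilobase of the longest coding transcript, the levels of the 36 genes spanned more than 2 orders of magnitude. The tetraspanin Cd63 stood highest, at a mean of 3862 per kilobase in core and 3380.0 with R. intestinalis. The cathepsin Ctss followed at 2820.3 and 2793, then the membrane glycoprotein Lamp1 at 1719.8 and 1754. This order depends on the transcript length used: without scaling by length, Ctsb had the highest mean, 7249 in core and 6951 with R. intestinalis. Lowest in core stood the lysophospholipid transporter Spns1, at 14.0 per kilobase in core and 36.8 with R. intestinalis, and the glycogen-cutting enzyme Gaa, at 17.3 and 37.4. With R. intestinalis the lowest were Gla, at 23.9 in core and 27.8 with R. intestinalis, and Naglu, at 20.1 and 30.5. The low end is thinly covered: Spns1 rested on 16 estimated reads in core replicate 1, and Gaa on 20.

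The comparison of the groups asks whether adding R. intestinalis to the community goes with a different level of these genes in the gut wall. Since the genes were chosen with this contrast in view, their differences are given as a description and carry no test. All 36 passed the filter on low values, a mean of 10 over the 8 libraries. Of these 36 genes, 21 had a log2 difference above 0 and 15 below, with a median of 0.098 and a range from −0.47 to 1.34, where 49.6% of the 13020 tested genes lay above 0 and their median was −0.003. The median size of the difference, sign aside, was 0.20 for the 36 genes and 0.21 for all tested genes. The values of the groups did not overlap for 4 of the 36, with Neu1, Acp5 and Spns1 higher and Ctsh lower with R. intestinalis; over all tested genes the groups did not overlap in 5.84%. Leaving out core replicate 2 made that count of 4 into 11, and leaving out core replicate 3 made it 8. With replicate 2 or replicate 5 of the R. intestinalis group left out, it was 9 or 7. Leaving a library out can only keep or raise such a count, whichever genes are chosen. The matching shares of all tested genes are not given, so these counts say nothing particular about the 36 genes. In limma's test across all genes, 0 of 13020 genes (0.0%) passed an adjusted p of 0.05, and 1058 (8.13%) had an unadjusted p below 0.05. In the authors' deposited table, Neu1, Acp5 and Spns1 had a posterior probability of differential expression of at least 0.95, as had 0.481% of the 17041 genes listed. The fold ratios in the authors' deposited table were 1.58 for Neu1, 1.26 for Acp5 and 2.62 for Spns1, and 0.77 for Ctsh, whose posterior probability was 0.30.

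**Figure D1:**
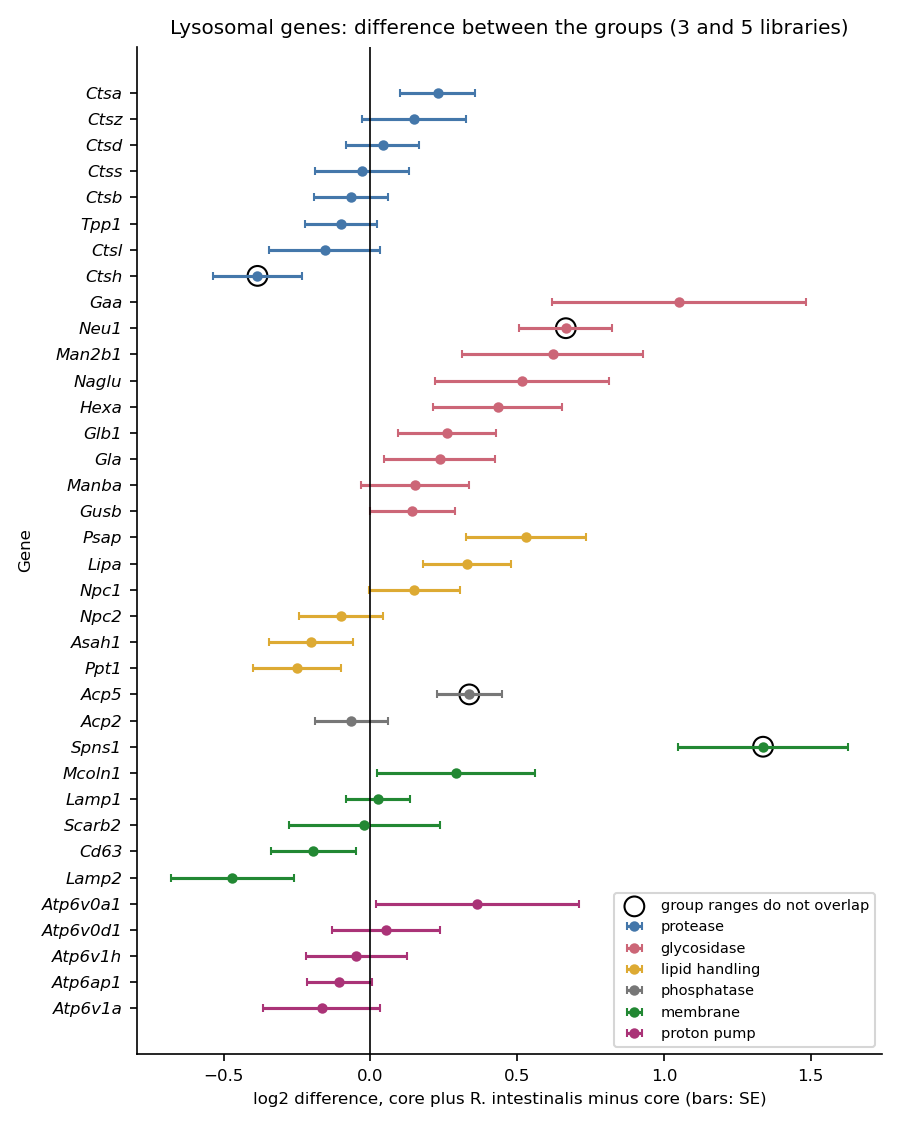
The log2 difference between the groups (x axis, core plus R. intestinalis minus core, points with SE bars) for each of the 36 genes (y axis), coloured by role. All 9 glycosidases lie to the right of 0, the proteases lie close to 0, and circles mark Neu1, Acp5, Spns1 and Ctsh, whose group values do not overlap.

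The glycosidases, which remove sugars from glycoproteins, glycolipids and proteoglycans, all had a log2 difference above 0. The 9 of 9 had a median of 0.43 and a range of 0.14 to 1.05, beside 49.6% of all tested genes above 0, and 1 of them, Neu1, had groups that did not overlap. Leaving out core replicate 1 made the median 0.28, with all 9 still above 0. Neu1, the sialidase that cuts terminal sialic acid, read 548, 772 and 786 in core and 1244, 911, 1199, 1105 and 1071 with R. intestinalis. Every value with R. intestinalis lay above every core value, and core replicate 1 was the lowest library. The means were 702 ± 133 and 1106 ± 129.5, a log2 difference of 0.67 (SE 0.159).

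Gaa, the acid alpha-glucosidase that degrades glycogen, read 31.8, 91.8 and 65.4 in core and 289, 86.7, 112, 96.1 and 95 with R. intestinalis. Replicate 1 with R. intestinalis stood far above the other 7 libraries, whose groups overlapped. The log2 difference was 1.05 (SE 0.431), and 0.74 without that library. Man2b1, the alpha-mannosidase of N-glycan breakdown, read 203, 339 and 364 in core against 809, 449.7, 472, 284 and 379.6 with R. intestinalis, and again the same library was the highest and core replicate 1 the lowest. Its groups overlapped and its log2 difference was 0.62 (SE 0.309), or 0.41 without replicate 1 with R. intestinalis. Hexa, the alpha subunit of hexosaminidase, read 371, 512 and 513 in core against 881, 654, 677, 556 and 429.5 with R. intestinalis, and only replicate 5 with R. intestinalis lay among the core values. Its log2 difference was 0.43 (SE 0.22).

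The other glycosidases had overlapping groups. Naglu, an enzyme of heparan sulfate breakdown, averaged 51.5 ± 7.48 and 78.1 ± 33.9, with replicate 1 with R. intestinalis at 138 and the other 4 libraries of that group at 51.8 to 69.0. Glb1, the beta-galactosidase that forms a complex with the products of Neu1 and Ctsa, averaged 584 ± 130.5 and 693 ± 91.6. Gla, the alpha-galactosidase, averaged 75.7 ± 16.9 and 88.2 ± 7.20, Gusb, the beta-glucuronidase, 202 ± 19.8 and 223 ± 21.5, and Manba, the beta-mannosidase, 178 ± 9.62 and 202 ± 38.8.

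**Figure D2:**
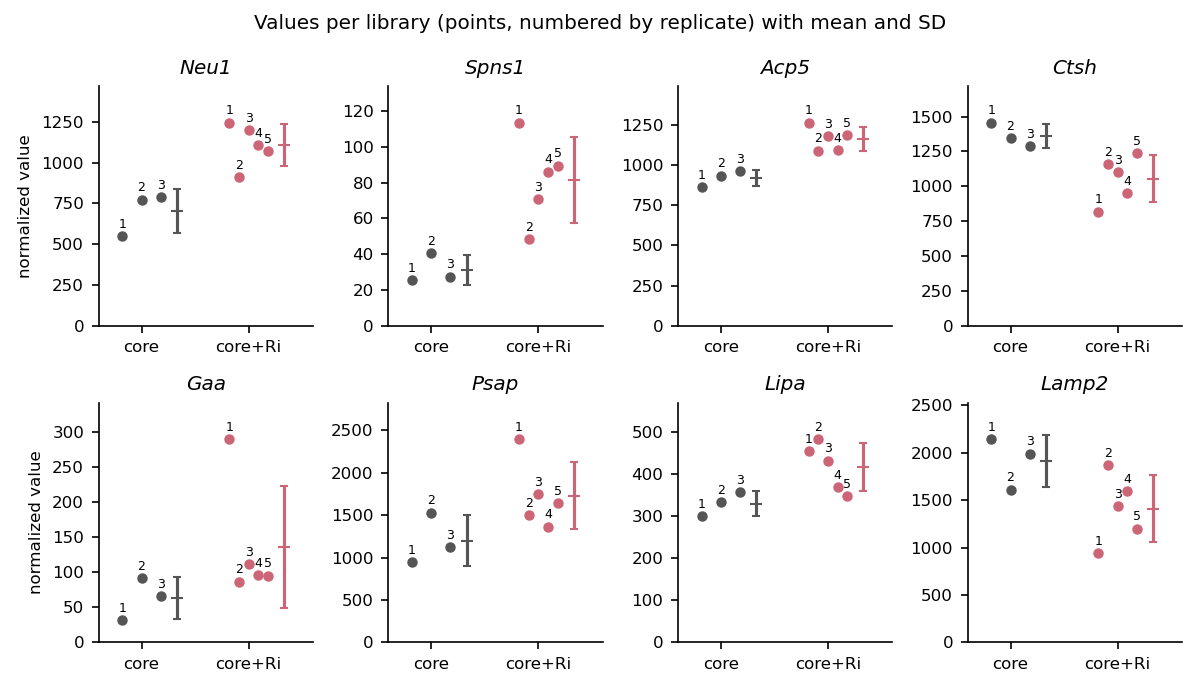
Normalized value (y axes, each starting at 0) of 8 of the genes in each library, with numbered points for replicates and the mean with SD beside them, for core (grey) and core plus R. intestinalis (red). The groups do not overlap in the upper row, and in the lower row replicate 1 with R. intestinalis is the highest for Gaa and Psap and the lowest for Lamp2.

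The proteases lay close to 0 as a group, with 3 of 8 above 0 and a median log2 difference of −0.048. The member with the largest difference was Ctsh, an aminopeptidase of the cathepsin family. Ctsh read 1457, 1343 and 1288 in core and 818, 1161, 1100.5, 951 and 1236 with R. intestinalis, and every core value lay above every value with R. intestinalis. That is a log2 difference of −0.38 (SE 0.15), and 3.31% of all tested genes had groups that did not overlap in this direction.

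Ctsa, a carboxypeptidase that also protects the products of Neu1 and Glb1 from breakdown, read 1096, 1456 and 1391 in core against 1616, 1454, 1614, 1406 and 1565 with R. intestinalis. Core replicate 1 was the lowest and the remaining values of the groups overlapped, with a log2 difference of 0.23 (SE 0.128). Ctsl, a cysteine endopeptidase, read 1711, 1419 and 1781 in core against 980.2, 1764, 1467, 1639 and 1608 with R. intestinalis, and replicate 1 with R. intestinalis was the lowest of all. Its log2 difference was −0.16 (SE 0.19), and −0.011 without that library. Ctsd, the main aspartic protease of lysosomes, read 3054, 3210.5 and 3794 in core against 3186, 3728, 3367, 3772 and 3169.8 with R. intestinalis, with the groups interleaved and a log2 difference of 0.041 (SE 0.125).

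The other proteases also had overlapping groups. Ctsb, an abundant cysteine protease, averaged 7249 ± 298 and 6951 ± 745. Ctss, which trims the invariant chain of MHC class II in antigen-presenting cells, averaged 3822 ± 339 and 3784 ± 664. The carboxypeptidase Ctsz averaged 1044 ± 195 and 1160.0 ± 209, and Tpp1, a tripeptidyl peptidase, averaged 1243 ± 9.04 and 1166 ± 127. Markers of macrophages, a cell type rich in several of these proteases, were measured beside them. Of 12 such markers, 11 had a log2 difference below 0 and none passed limma's adjusted p of 0.05. Their summed value was 3383 to 4646 in core and 1727 to 4599 with R. intestinalis, lowest in replicate 1, none of the 12 averaged below 1, and their part in the protease values was not tested.

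The 6 genes of lipid handling were split, with 3 above 0, 3 below and a median log2 difference of 0.024. Psap, the precursor of the saposins that present sphingolipids to their hydrolases, read 948, 1529 and 1119 in core and 2396, 1499.9, 1750.0, 1364 and 1641 with R. intestinalis. The highest value was replicate 1 with R. intestinalis and the lowest core replicate 1, and the groups overlapped through core replicate 2. Its log2 difference was 0.53 (SE 0.204), or 0.41 without replicate 1 with R. intestinalis.

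Lipa, the acid lipase that frees cholesterol and fatty acids from endocytosed lipoproteins, read 300, 333 and 357 in core against 455, 483, 432, 368 and 348 with R. intestinalis. Only replicate 5 with R. intestinalis lay inside the core range, and the log2 difference was 0.33 (SE 0.149). Ppt1, which strips palmitate from proteins, read 771, 681 and 813 in core against 522, 743, 671, 701 and 556 with R. intestinalis, with replicates 1 and 5 with R. intestinalis the lowest and a log2 difference of −0.25 (SE 0.15). Asah1, the acid ceramidase, averaged 2007 ± 186 and 1753 ± 231, with replicate 1 with R. intestinalis the lowest. The cholesterol exporters of the lysosome lay near 0: Npc1 averaged 234 ± 12.5 and 262 ± 40.6, and Npc2 averaged 1399.7 ± 81.1 and 1315 ± 187.

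The 2 phosphatases differed in their values. Acp5, the tartrate-resistant acid phosphatase of osteoclasts and macrophages, read 862, 934 and 961 in core and 1263, 1088, 1179, 1093 and 1184 with R. intestinalis. Every value with R. intestinalis lay above every core value, with the closest pair at 961 and 1088. The log2 difference was 0.34 (SE 0.111), and 2.53% of all tested genes had groups that did not overlap in this direction. An antisense transcript, 6530413G14Rik, overlaps its exons in GENCODE M21, and whether the counting used strand is not stated in the labels. Acp2, the classical lysosomal acid phosphatase, read 451, 444 and 524 in core against 407, 486, 442, 470.3 and 454 with R. intestinalis, with overlapping groups and a log2 difference of −0.065 (SE 0.124).

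The other membrane genes ranged from the highest to the lowest log2 difference of the whole set. Spns1, which exports lysophospholipids from the lysosome, read 25.4, 40.6 and 27.6 in core and 114, 48.5, 70.8, 86.2 and 89.5 with R. intestinalis. Every value with R. intestinalis lay above every core value, although replicate 2 with R. intestinalis and core replicate 2 were close. The log2 difference was 1.34 (SE 0.29), and 1.21 without replicate 1 with R. intestinalis. These values came from 16, 38 and 24 estimated reads in core and 170, 45, 155, 73 and 70 with R. intestinalis, so the core level is the less precise.

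Lamp2, a glycoprotein that lines the inner face of the membrane and serves in autophagy, read 2145, 1612 and 1992 in core against 943, 1868, 1440.4, 1599 and 1201 with R. intestinalis. The groups overlapped, the lowest library was replicate 1 with R. intestinalis, and the log2 difference was −0.47 (SE 0.21). Its relative Lamp1, the best known marker of the organelle, read 3809, 3839 and 3853 in core against 3934, 4085, 4041, 4005 and 3487 with R. intestinalis. The core libraries had an SD of 22.0 around their mean of 3834, replicate 5 with R. intestinalis was the lowest of all, and the log2 difference was 0.026 (SE 0.109). Mcoln1, the calcium channel of the lysosome, read 93.7, 122 and 80.9 in core against 170.1, 91.4, 118, 83.8 and 159.8 with R. intestinalis, with interleaved groups and a log2 difference of 0.29 (SE 0.269), or 0.17 without replicate 1 with R. intestinalis. Cd63 averaged 4283 ± 545 and 3748 ± 504, and Scarb2, the receptor that carries glucocerebrosidase to lysosomes, averaged 904 ± 212 and 912 ± 291.

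The vacuolar proton pump has a membrane sector, V0, which carries protons, and a cytosolic sector, V1, which splits ATP. Of its 5 members here, 2 lay above 0 and 3 below, with a median log2 difference of −0.048 and no gene whose groups did not overlap. Atp6v0a1, an isoform of the largest V0 subunit, read 171, 196 and 153 in core and 501, 157, 187, 152 and 242 with R. intestinalis. A single library, replicate 1 with R. intestinalis, stood far above the rest: the log2 difference was 0.36 (SE 0.347) with it and 0.072 without it. Atp6v1a, the catalytic V1 subunit, read 638, 549 and 689 in core against 358, 633, 572, 628 and 645 with R. intestinalis, where the same library was the lowest and the log2 difference was −0.17 (SE 0.2) with it and −0.0088 without it. Atp6ap1, an accessory subunit, read 1227, 1175 and 1242 in core against 1078, 1266, 1116, 1139 and 1053 with R. intestinalis, with overlapping groups and a log2 difference of −0.11 (SE 0.111). Atp6v0d1, of the stalk of V0, averaged 479.5 ± 41.5 and 507 ± 121, and Atp6v1h, a regulatory V1 subunit, averaged 361 ± 27.1 and 354 ± 64.9.

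With the other pump subunits of the table included, 19 were tested. Of 8 V0 genes, 6 lay above 0, with a median log2 difference of 0.092, and of 9 V1 genes 8 lay below, with a median of −0.16 and Atp6v1g2, named after its value was seen, the exception at 0.63. The V0 genes had the higher transcript GC content, with a median of 53.5% against 48.2%, and after a correction for GC content the medians were 0.016 and −0.038. None of the 14 subunits outside the list passed limma's adjusted p of 0.05. Atp6v0a2, a V0 isoform of many tissues, read 538, 563 and 596 in core and 907, 680.4, 846, 709 and 738 with R. intestinalis, without overlap. Its log2 difference was 0.45 (SE 0.133, limma adjusted p = 0.588), while the authors' deposited table gave it a posterior probability of 0.96. The isoform Tcirg1, known from osteoclasts, had 0.55 (SE 0.3, limma adjusted p = 0.592), and the V1 subunit Atp6v1f had −0.24 (SE 0.138, limma adjusted p = 0.597).

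**Figure D3:**
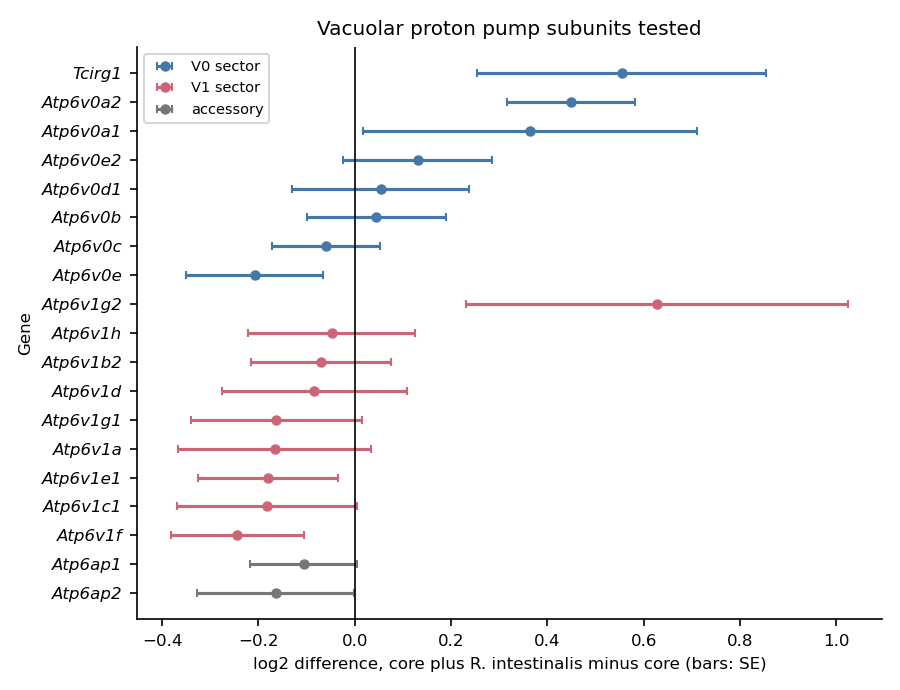
The log2 difference between the groups (x axis, core plus R. intestinalis minus core, points with SE bars) for the 19 tested proton pump genes (y axis), coloured by sector. Of the V0 genes 6 of 8 lie above 0, and of the V1 genes 8 of 9 lie below, before any correction for GC content.

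Tfeb, the activator of the CLEAR network, was low and variable under its older symbol Tcfeb. Tcfeb read 17.5, 23.4 and 9.18 in core and 27.4, 7.55, 22.8, 29.5 and 43.5 with R. intestinalis, from 7 to 50 estimated reads. The groups overlapped, and replicate 2 with R. intestinalis was the lowest of all libraries. Its log2 difference was 0.53 (SE 0.509). Its relative Tfe3, listed as Tcfe3, read 60.3, 67.1 and 47.1 in core against 124, 37.7, 88.2, 53.1 and 97.1 with R. intestinalis, with a log2 difference of 0.35 (SE 0.36), and Mitf had −0.42 (SE 0.311).

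The 36 genes did not vary as 1 block from library to library. Within groups, the median correlation between pairs of genes over the 8 libraries was 0.070, against −0.0022 for all tested genes. The glycosidases had the highest value of the roles with 5 or more genes, 0.28, and the 5 proton pump genes the lowest, −0.56. Over all 19 tested proton pump genes the median was 0.042, so the low value was not seen over the whole pump. Among the 5, replicate 1 with R. intestinalis was the highest library for Atp6v0a1 (501) and Atp6v0d1 (708). It was the lowest for Atp6v1a (358) and Atp6v1h (255), and its part in the value of −0.56 was not tested. These correlations are descriptions, since all genes share the same 8 libraries. Replicate 1 with R. intestinalis held the highest value of 15 of the 36 genes (41.7%) and the lowest of 13 (36.1%), where it held the highest of 28.1% and the lowest of 25.1% of all tested genes. Core replicate 1 held the lowest value of 12 of the 36 (33.3%), against 15.6% of all tested genes, among them Gaa, Neu1, Man2b1, Naglu, Hexa and Glb1.

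**Figure D4:**
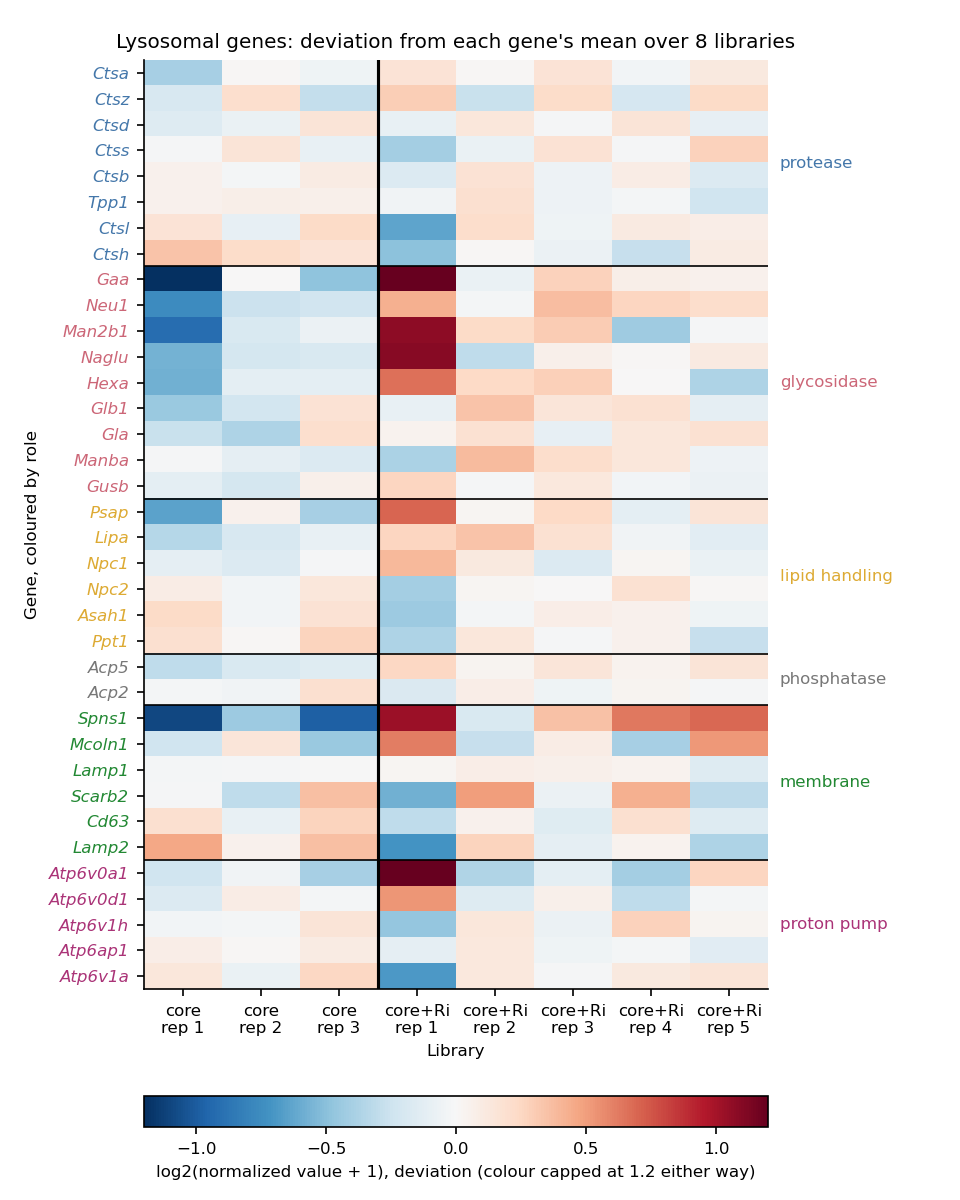
Deviation of log2(value + 1) from each gene's mean over the 8 libraries (colour, capped at 1.2 either way) for the 36 genes (rows, by role) in each library (columns, core left of the line). Replicate 1 with R. intestinalis holds the extreme value of many genes in both directions, and core replicate 1 is low for most glycosidases.

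The difference between the groups moved with the GC content of the transcripts. Over the 36 genes, the log2 difference and the GC content of the longest coding transcript had a correlation of 0.74, against 0.46 over 11757 tested genes with a transcript. Without replicate 1 with R. intestinalis the correlation over the 36 was 0.63. The 12 genes of highest GC content, at 54.1% or above, had 12 of 12 differences above 0 and a median of 0.47. By contrast, the 12 of lowest GC content, at 47.2% or below, had 2 above 0 and a median of −0.082. In single libraries the correlation between deviation and GC content over all tested genes ran from −0.45 in core replicate 3 to 0.59 in replicate 1 with R. intestinalis.

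A correction that removed a smooth trend of each library on GC content was added after the data were seen. The log2 difference of Spns1 became 1.03, that of Gaa 0.74, that of Neu1 0.44 and that of Acp5 0.15. For Ctsh it was −0.38, for Lamp2 −0.23, and for Lipa, whose transcript has a GC content of 45.5%, 0.47. The 9 glycosidases remained above 0, with a median of 0.29. After the correction the correlation over the 36 genes was 0.44, and the part of GC content in the group differences was not otherwise tested.

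**Figure D5:**
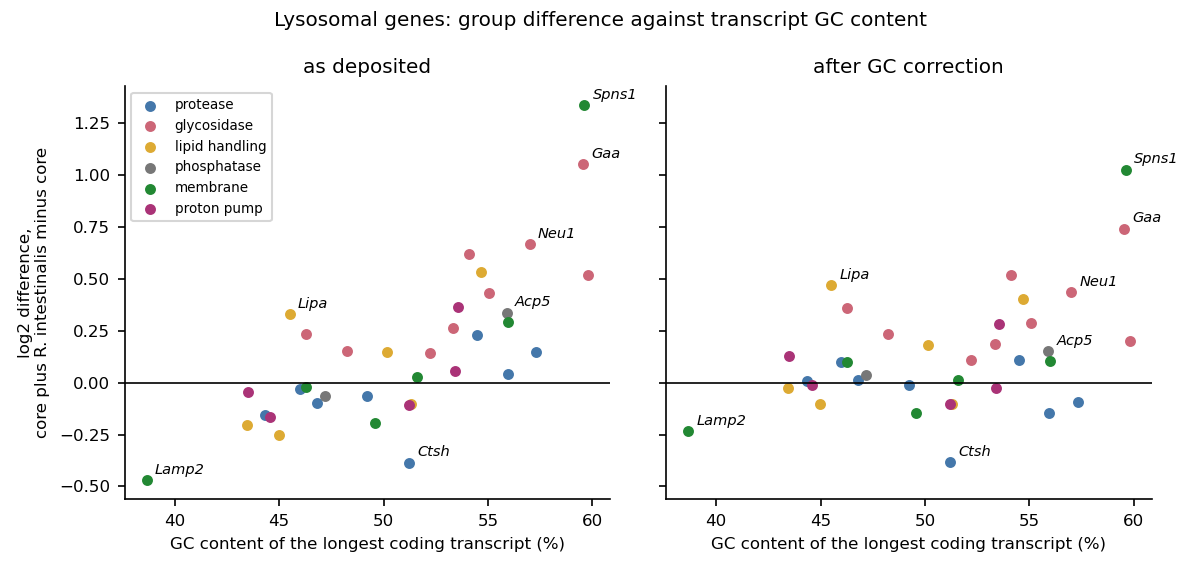
The log2 difference between the groups (y axes) against the GC content of the longest coding transcript in percent (x axes) for the 36 genes, as deposited (left) and after the GC correction (right), coloured by role. The correlation is 0.74 on the left and 0.44 on the right.

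Markers of other cell types of the gut wall were read in the same libraries. The 7 fibroblast markers summed to 8090 to 9260 in core and 4796 to 7190 with R. intestinalis, without overlap, and all 7 had a log2 difference below 0. The 7 smooth muscle markers summed to 128378 to 177524 and 86234 to 153350, and the 7 B and plasma cell markers to 6288 to 9811 and 4005 to 7643. The 8 adipocyte markers summed to 1261 to 3032 and 417 to 1807. The 6 endothelial markers summed to 896 to 1171 and 672 to 916. For the 10 markers of enteric neurons and glia the sums were 875 to 1093 and 564 to 995. Other lists reached higher with R. intestinalis than in core. T cell markers summed to 111 to 137 and 73.1 to 175, and dendritic cell markers to 120 to 164 and 105 to 182. Mast cell markers summed to 588 to 605 and 507 to 990, and neutrophil markers to 11.2 to 18.8 and 13.4 to 24.7. No tested marker of these lists passed limma's adjusted p of 0.05, and their part in the lysosomal values was not tested. Only 1 mast cell marker and 1 neutrophil marker averaged below 1.

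The rest of the pathway was read from 8 lists of 129 genes that are no members, of which 122 were tested. None passed limma's adjusted p of 0.05 (the smallest was 0.588), and at an unadjusted p below 0.05 there were 4 higher and 2 lower with R. intestinalis. Over all 13020 tested genes, 1058 (8.13%) had an unadjusted limma p below 0.05. The count of 6 among the pathway genes was 1 when core replicate 1 was left out and 10 when core replicate 2 was. With replicate 2 or replicate 4 of the R. intestinalis group left out, it was 12 or 10. The matching shares of all tested genes are not given, so these shifts say nothing particular about the pathway. The log2 difference was above 0 for 69 of the 122, with a median of 0.044, and the groups did not overlap in 5.74% of them, close to the 5.84% of all tested genes. The promoters of 10 of 102 of these genes held TCACGTGA (9.80%), among them Clcn7, the chloride carrier of the lysosome, and Igf2r, a mannose 6-phosphate receptor.

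Of 18 further glycan and sulfate hydrolases, 15 lay above 0, with a median of 0.093. Man2b2, a mannosidase, had a log2 difference of 0.60 (SE 0.263), and Galns, a sulfatase of keratan sulfate, had 0.37 (SE 0.178). Among 9 further proteases 6 lay below 0, with Ctsk, known from osteoclasts and fibroblasts, at −0.40 (SE 0.288). The carboxypeptidase Pgcp averaged 808 ± 94.3 and 597 ± 106, without overlap, at −0.45 (SE 0.176, limma adjusted p = 0.588), and Prcp had −0.16 (SE 0.165).

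Of 25 further membrane proteins tested, 15 lay above 0. Tpcn2, a cation channel of endosomes and lysosomes, averaged 57.1 ± 13.3 and 85.7 ± 12.5, without overlap, with a log2 difference of 0.59 (SE 0.209, limma adjusted p = 0.588). Cln3 had 0.36 (SE 0.181) and Laptm4a −0.31 (SE 0.158). Among 6 further lipid genes 4 lay above 0, with Pld3 at 0.33 (SE 0.191), Plbd2 at 0.37 (SE 0.379) and the phospholipase Pla2g15 at −0.32 (SE 0.23).

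The genes of enzyme sorting, nutrient sensing and autophagy lay on both sides of 0. Of 9 sorting genes 5 lay above 0, with the mannose 6-phosphate receptors on either side: Igf2r at 0.26 (SE 0.139) and M6pr at −0.18 (SE 0.178), and with the sorting receptor Sort1 at 0.19 (SE 0.209). Of 20 genes of nutrient sensing, 10 lay above 0. Mapksp1, the older symbol of the Ragulator subunit Lamtor3, averaged 328 ± 18.9 and 262 ± 33.3, without overlap, at −0.33 (SE 0.146, limma adjusted p = 0.588). The mTORC1 activator Rheb had −0.32 (SE 0.159), and the mTOR partner Mlst8 had 0.39 (SE 0.207). Of 21 autophagy genes 12 lay above 0, with Atg9a, the membrane protein of early autophagosomes, at 0.70 (SE 0.365), and the tethering subunits Vps11 at 0.32 (SE 0.146) and Vps18 at 0.58 (SE 0.348).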

How the data were processed

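The labels describe mRNA libraries of frozen proximal large intestine, made with a strand-marking kit. The authors deposited 1 table of normalized signal (estimated reads divided by 1 factor per library), with a score (posterior probability of differential expression) and a fold ratio per gene. Per the submitters' processing notes, Bowtie2, RSEM 1.2.23 and mm9 were used. Of the low values (below 30), 80.0% to 84.4% per library lay on whole-read steps (tolerance 0.05), so whole reads were not assumed and no count test was run.

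The 13020 genes averaging 10 or more across the libraries were fitted with limma 3.58.1 in R 4.3.3 on log2(value + 1), with a mean-variance trend and Benjamini-Hochberg adjustment. The fit was tested on simulated data. Transcript length and GC content came from GENCODE M21, for 89.7% of genes. RefSeq synonyms resolved older symbols.

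The genes and lists were chosen with earlier results of these data known. Every library value is given for the 3 genes of a role with the largest difference and for its best known marker, and up to 3 genes of each pathway list by smallest p. Some genes of these lists are not reported here. In GENCODE M21, 12 of the 37 genes share exonic bases with another gene, 3 of them (Ctsd, Ctsl and Glb1) on the same strand, and their values are less certain. Alternatives covered the pseudocount, the filter, the scaling, the trend, a replicate block, each library left out and a GC correction.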

Additional observations from a re-analysis of the deposited data

Results flagged for a closer look

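Within the 5 core plus R. intestinalis libraries, a single library stood far from the others for 4 of the 36 genes. The rule used has a nominal rate of about 1 group in 20, and the share of all tested genes it marks is not given. Replicate 1 held 3 of the 4. Among the 8 libraries it also held the highest value of 28.1% and the lowest of 25.1% of all tested genes. Gaa read 289 in replicate 1, with the next library at 112. Asah1 was lowest in replicate 1, at 1359, with the next at 1770.3. Atp6v1a was lowest in replicate 1 as well, at 358, with the next at 572. Lamp1 was lowest in replicate 5, at 3487, with the next at 3934.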

How the results depend on the processing

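Over 17 alternatives, 26 of the 36 genes kept the sign of their log2 difference; Acp2, Atp6v0d1, Atp6v1h, Ctsb, Ctsd, Ctsl, Ctss, Ctsz, Scarb2 and Tpp1 did not. All 9 glycosidases stayed above 0 in each of the 17, with a median of 0.28 to 0.61. GC correction, added after the data were seen, gave 0.44 for Neu1, 0.15 for Acp5 and −0.14 for Ctsd. To check whether the numbers pair libraries across the groups, each log2 value was taken as a deviation from its gene's mean in that group. For these deviations, core and core plus R. intestinalis libraries of the same replicate number had correlations of −0.12, −0.53 and −0.070 over 13020 genes. The core libraries carry other numbers in their sample names, and pairs by those were not checked. With the replicate block, the median of the 36 genes was 0.17 and 2 pathway genes had an unadjusted p below 0.05; in that fit replicates 4 and 5, with no core partner, add nothing to the difference. With single libraries left out, that count ran from 1 to 12, and the matching counts of all tested genes are not given. The genes with groups apart ran from 4 to 11, a count that can only stay or rise with fewer libraries. All genes passing limma's adjusted p ran from 0 to 1. The 1 was Rangrf, without core replicate 1, and was named after its value was seen. The E-box CACGTG stood in 11 promoters, against 6 for TCACGTGA. Genes of fewer than 50 estimated reads in a library, such as Spns1, Gaa, Naglu and Tcfeb, are the least precise. The causes of these shifts were not tested.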

Other observations

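Several lysosomal genes differed more among libraries of 1 group than between the groups. These genes and Hoxb13 were picked after their values were seen and are given as values, and any relation between them was not tested. Hoxb13, a gene of positional identity along the gut, read 141, 439 and 25.3 in core and 247, 2.16, 394, 8.26 and 663 with R. intestinalis, lowest in core replicate 3 and in replicates 2 and 4 with R. intestinalis. Scarb2 read 871, 710.0 and 1129.6 in core against 588, 1245, 835, 1184 and 707 with R. intestinalis, and its 3 highest values were in those 3 libraries. Lgmn, the asparaginyl endopeptidase that matures cathepsins, read 886, 919 and 1241 in core against 625, 1489, 1006, 1277 and 739 with R. intestinalis, and was also highest in core replicate 3 and in replicates 2 and 4 with R. intestinalis.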
